A study of Arabidopsis thaliana with 12 samples.

Results

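Combined hypoxia and flg22 treatment was compared with untreated seedlings in 6 of the 12 RNA-seq samples of the series, which were chosen by their treatment labels: 3 samples of hypoxia/flg22 (HF) and 3 of normoxia/mock (NM). All samples were whole wild-type Col-0 Arabidopsis seedlings of 10 days that had been grown in continuous light, and each sample pooled 5 seedlings. HF seedlings were kept for 1 h in sealed jars that remove oxygen (anaerojars) with 100 nM flg22 added at the same time, and NM seedlings were kept for 1 h in ambient air with water as the mock. The 3 samples each of hypoxia/mock (HM) and normoxia/flg22 (NF) entered the same fit and were used to set the combined treatment beside each single stress. Replicates are the numbered samples of each group. RNA came from whole seedlings, so that fewer cells of a type and less RNA per cell cannot be told apart.

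The peptide flg22 is a fragment of bacterial flagellin that is perceived by the receptor kinase FLS2 and sets off pattern-triggered immunity (PTI), with MAP kinase activation and induction of WRKY transcription factors. Low oxygen stabilizes group VII ERF transcription factors, which are otherwise destroyed by the oxygen-dependent branch of the N-degron pathway, and these switch on fermentation genes. Growth of light-grown seedlings is driven by auxin, brassinosteroid and gibberellin together with bHLH factors such as the PIFs and HBI1, while phytochromes, cryptochromes and B-box factors tune growth to light.

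Total counts ranged from 21307650 to 21554050 per sample, and 20074 of 23396 genes had enough counts to be tested (minimum count 10). Levels are given as CPM, which are counts after normalization to the effective size of each library (TMM factors). A gene was called a DEG when edgeR's quasi-likelihood test gave an adjusted p (Benjamini-Hochberg) under 0.05 and its level changed more than 1.5-fold in either direction, and log2FC is the log2 of the fold change. The replicate number was a block in this fit. Some libraries stood apart: HM replicate 1 had a mean log2 CPM of 5.12 over the PTI genes, against 3.62 and 4.16 in the other HM samples, and HF replicate 2 had the highest mean over the core hypoxia genes, 7.47, against 6.53 and 5.99 in HF replicates 1 and 3. The sum over 13 markers of photosynthetic shoot cells was 52830 to 58820 CPM in NM and 54850 to 56610 CPM in HF. The sum over 9 leaf identity genes was 200.4 to 235.8 CPM in NM and 170.3 to 178.3 CPM in HF, without overlap, and that over 13 root markers was 26.11 to 121.1 CPM in NM and 34.88 to 68.72 CPM in HF. The part of these marker levels in the results was not tested. Seed and pollen markers, which seedlings should lack, summed to at most 4.32 and 0.34 CPM in any sample of the series.

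Relative to NM, 3362 genes were DEGs in HF (16.7% of all tested genes), of which 2211 were upregulated (11.0%) and 1151 downregulated (5.73%). The rises were larger than the falls. The median log2FC was 1.76 among upregulated DEGs, and 25.4% of these changed more than 8-fold. Among downregulated DEGs the median was -1.01, and 21 genes (1.82%) changed more than 8-fold. The HF and NM samples did not overlap for 2058 of the upregulated and 971 of the downregulated DEGs, which were called for their difference. Over all tested genes, HF lay wholly above NM for 14.8% and wholly below for 12.4%. Without the replicate block the same test called 1576 upregulated (7.85%) and 519 downregulated (2.59%) genes, and 517 of the latter were among the 1151. Calls without the block refer to this fit below. The number of downregulated genes was 477 without HF replicate 2, 499 without NM replicate 2 and 598 without NM replicate 3. Scaling by library size only lowered the median log2FC of all genes from -0.02 to -0.30 and gave 1785 upregulated and 3322 downregulated genes, so that rises and falls are described relative to the TMM scale, under which the median gene hardly changed.

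Growth regulators of several families were downregulated. Of 19 tested TCP genes, which encode transcription factors of leaf and stem growth, 11 fell and 1 rose. Of 29 tested growth bHLH genes, 11 fell (37.9%). This list holds the PIF, BEE, PRE and HBI1 groups and also HFR1, PAR1, CIB1 and the IBH1, AIF and BIM genes. Not all of its members promote growth. Among all members of the list, whatever their role, those that fell included HFR1 (log2FC -1.63), PAR1, AT3G06590, CIB1 and PIF7. These were picked for mention after their values were seen. Downregulated DEGs made up 15 of 51 SAUR genes, 8 of 26 B-box genes, 8 of 36 genes for photoreceptors and light signaling, and 6 of 23 genes of auxin synthesis and transport. The median log2FC of these lists was -0.90 (TCP), -0.72 (bHLH), -1.35 (SAUR), -0.33 (B-box), -0.34 (light signaling) and -0.42 (auxin), against -0.02 over all genes tested. The B-box and light signaling falls were not shared by all same-numbered pairs. Their medians were 0.08 and 0.06 in pair 1, -0.47 and -0.51 in pair 2, and -0.64 and -0.45 in pair 3. The other lists had medians below 0 in every pair, with SAUR at only -0.28 in pair 2. Without the block, 3 TCP, 9 bHLH, 8 SAUR, 4 B-box, 5 light signaling and 3 auxin genes fell.

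**Figure D1:**
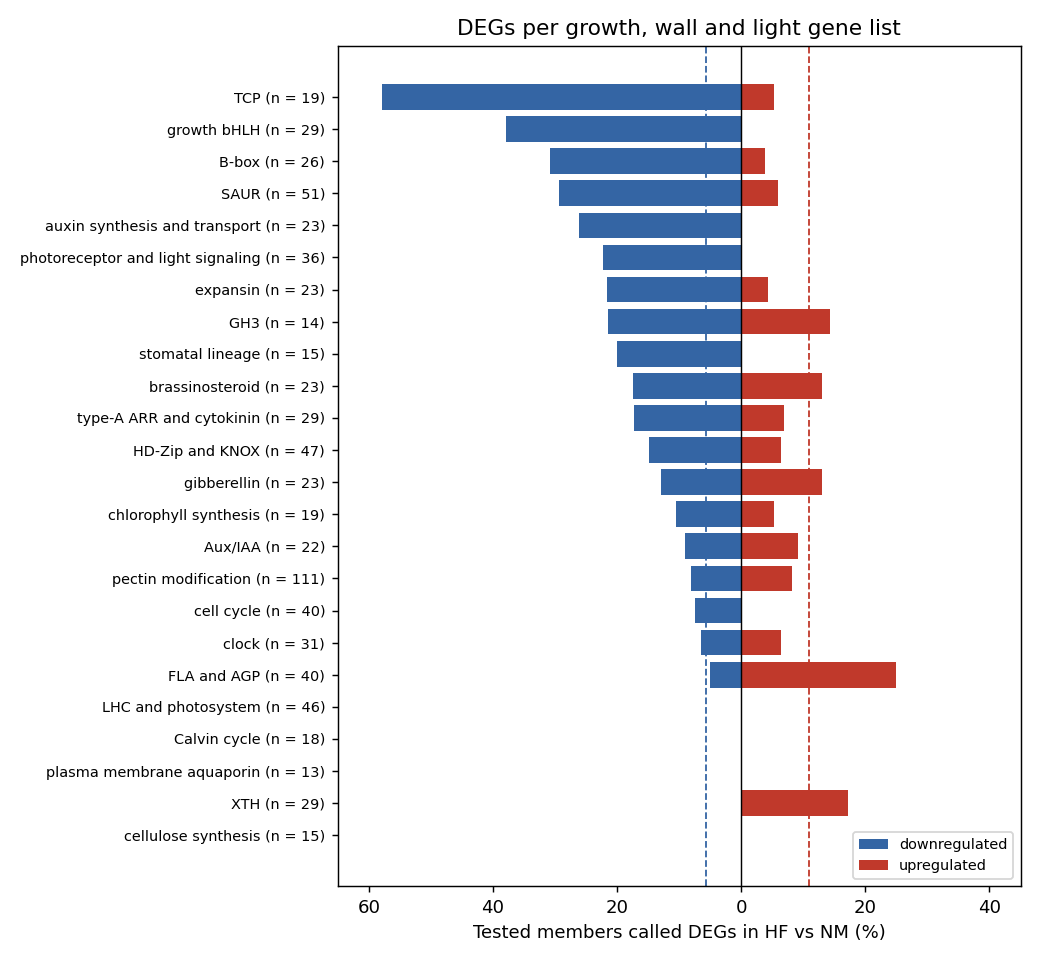
Percentage of tested members of each growth, wall and light gene list that were downregulated (blue, to the left) or upregulated (red, to the right) in HF vs NM, with the number tested in parentheses. Dashed lines mark the percentages over all 20074 genes, 5.73% down and 11.0% up, and the TCP list has the longest bar to the left (57.9%).

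The bHLH factor HBI1 (AT2G18300), which promotes cell elongation, had the largest fall of its list. Its level was 50.2, 34.4 and 29.5 CPM in NM replicates 1, 2 and 3 and 7.44, 2.72 and 3.17 CPM in HF. All HF samples were below all NM samples, and the log2FC was -3.16 (SE 0.60, adjusted p = 0.00564), an 8.94-fold lower level. PIL5 (AT2G20180), also known as PIF1, a phytochrome-interacting repressor of seed germination and greening, went from 29.9, 55.0 and 32.7 CPM in NM to 11.1, 7.66 and 10.4 CPM in HF (log2FC -1.96, SE 0.35, adjusted p = 0.00392). The brassinosteroid-induced bHLH genes BEE3 (log2FC -1.93) and BEE2 (log2FC -1.86) fell to a similar degree, again without overlap between groups. For HBI1, PIL5, BEE2 and BEE3 the call held in every fit that left out a sample.

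Not all growth bHLH genes passed the test. PIF4, the main PIF of warm-temperature and shade growth, had 56.6, 26.2 and 32 CPM in NM and 42.6, 9.24 and 18.9 CPM in HF, so that the groups overlapped (log2FC -0.79, SE 0.47, adjusted p = 0.287). PIF5 had 101, 339 and 151 CPM in NM and 106, 127 and 88.6 CPM in HF and was not called either (adjusted p = 0.312). PIF3 was barely past the threshold (log2FC -0.87, adjusted p = 0.0499) and was no DEG without the block or in most fits that left out a sample. The atypical bHLH gene PRE6 fell (log2FC -1.19, SE 0.29, adjusted p = 0.0198), although it was no DEG without the block and NM replicate 1, at 24.3 CPM, stood above NM replicates 2 and 3 at 3.81 and 8.75 CPM. Its relative PRE1 was not called (log2FC -2.07, adjusted p = 0.156), and PRE5, with 3, 0 and 4 counts in NM and none in HF, was below the minimum for testing.

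The downregulated TCP genes had log2FC from -1.68 to -0.77. They were the CINCINNATA-like genes TCP2, TCP3, TCP4, TCP5, TCP10, PTF1 (TCP13), TCP17 and TCP24, a group that restrains proliferation in leaves, and the further members TCP15, AT5G23280 (log2FC -1.45) and AT5G51910 (log2FC -1.07). The largest fall was that of TCP17 (AT5G08070), a low-level gene with 2.83, 2.60 and 4.83 CPM in NM and 1.2, 1.02 and 0.86 CPM in HF (log2FC -1.68, SE 0.35, adjusted p = 0.00873). The only TCP gene that rose, AT5G08330, went from 28.7, 10.9 and 13.2 CPM in NM to 40.9, 20.9 and 27.8 CPM in HF. The HF and NM values of this gene overlapped, and the rise (log2FC 0.82, adjusted p = 0.0108) was not called without the block or when only library size was used. TCP2, TCP3, TCP4, TCP10, PTF1, TCP24 and AT5G51910 were picked for mention after their values were seen.

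Downregulated auxin genes included some of synthesis and some of transport. YUC2, a flavin monooxygenase of auxin synthesis, fell (log2FC -3.76, SE 0.95, adjusted p = 0.0222) at a level below 3.1 CPM in every NM sample, and lost its call in each of the 6 fits that left out an NM or HF sample. The efflux carrier gene PIN3 (AT1G70940) was well expressed, at 122, 133 and 121 CPM in NM and 47.0, 36.6 and 42.1 CPM in HF. The groups were far apart for PIN3 (2.97-fold lower, log2FC -1.57, SE 0.26, adjusted p = 0.00289). PIN4 changed by nearly the same factor (log2FC -1.57), and PIN7 fell by 2.1 on the log2 scale, but PIN7 was not called without the block, and its NM level varied from 26.2 to 103 CPM. TAA1 of auxin synthesis (log2FC -1.0) and the influx carrier gene AUX1 (log2FC -0.92) were also downregulated. TAA1 and AUX1 were picked for mention after their values were seen.

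SAUR genes encode small auxin-induced proteins, of which many promote cell expansion. The 15 that fell had log2FC from -5.42 to -1.24, and 3 rose. The most lowered, AT4G38860, had 6.38, 2.42 and 3.32 CPM in NM and 0.10, 0 and 0.19 CPM in HF. Its HF total was only 6 counts, against 298 in NM (log2FC -5.42, SE 1.11, adjusted p = 0.00818). AT1G29430 had 8.11, 1.81 and 6.04 CPM in NM and 0.75, 0.11 and 0.86 CPM in HF, a fall without overlap (log2FC -3.15, SE 0.66, adjusted p = 0.0092). AT5G18030 had 39, 1 and 37 counts in NM and 2, 0 and 1 counts in HF, too few for a fold change, and its call was lost in 5 of the 6 fits without an NM or HF sample. The largest rise was that of AT2G36210 (log2FC 1.72, adjusted p = 0.0298). Many SAUR genes lie in clusters of near-identical copies, and how the authors' counting divided shared reads is not stated, so the values of single members are uncertain.

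The 250 bases before the annotated gene start were read from the TAIR10.1 genome, whose nuclear chromosomes are those of the TAIR10 build named in the submitters' notes, to see which sequences the downregulated SAUR genes share. The E-box CACATG, a variant that PIF factors bind, occurred on either strand in 21 of 51 tested SAUR promoters (41.2%), against 11.2% of all 20073 promoters of that length. Within the family it was in 8 of the 15 genes that fell, in 13 of the 33 genes without a call and in 0 of the 3 that rose. Over all DEGs, it was in 12.3% of the downregulated and 10.5% of the upregulated genes. These are matches of letters and not binding sites. The promoters of 3 downregulated SAUR genes that hold it are shown with each match in capitals (CACATG, or CATGTG where it lies on the other strand), AT1G29430 from chr1:10303419-10303668 on the minus strand, AT1G29460 from chr1:10308247-10308496 on the minus strand and AT5G18030 from chr5:5968102-5968351 on the plus strand, each read 5′ to 3′ toward the gene.
AT1G29430: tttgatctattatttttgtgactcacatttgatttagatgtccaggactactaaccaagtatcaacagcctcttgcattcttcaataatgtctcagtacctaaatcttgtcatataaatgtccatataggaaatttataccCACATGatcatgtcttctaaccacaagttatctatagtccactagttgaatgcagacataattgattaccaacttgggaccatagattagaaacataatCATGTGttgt
AT1G29460: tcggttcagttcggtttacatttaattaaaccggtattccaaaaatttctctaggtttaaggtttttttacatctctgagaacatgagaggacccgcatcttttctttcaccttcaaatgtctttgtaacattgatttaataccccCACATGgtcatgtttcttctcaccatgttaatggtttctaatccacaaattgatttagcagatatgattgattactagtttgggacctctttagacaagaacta
AT5G18030: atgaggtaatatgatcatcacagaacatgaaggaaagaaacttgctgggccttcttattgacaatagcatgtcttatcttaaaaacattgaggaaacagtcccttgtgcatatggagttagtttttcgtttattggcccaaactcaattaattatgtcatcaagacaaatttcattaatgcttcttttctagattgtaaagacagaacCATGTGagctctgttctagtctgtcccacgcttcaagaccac
The first base of the match lies 104 bases before the gene start in AT1G29460 and 109 and 10 bases before it in AT1G29430, which belong to the same run of SAUR genes on chromosome 1. In AT5G18030 it lies 42 bases before the start. Like AT5G18030, AT1G29460 rested on few counts, with a total of 59 in NM and 4 in HF.

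Genes of other growth hormones moved in both directions, against 5.73% down and 11.0% up over all genes. Of 23 brassinosteroid genes, 4 fell (17.4%) and 3 rose, and BR6OX2 (AT3G30180), which catalyzes the last steps of brassinosteroid synthesis, had the largest fall, from 8.68, 38.7 and 15.9 CPM in NM to 1.55, 5.22 and 1.54 CPM in HF. The fall was seen in all 3 same-numbered pairs (log2FC -2.90, SE 0.59, adjusted p = 0.00766), but it was not called without the block, where the NM values spread widely. BAS1, which inactivates brassinosteroids, fell too (log2FC -0.98). For gibberellin, 3 of 23 genes fell and 3 rose. GA3OX1, which makes the active hormone, fell (log2FC -1.33, SE 0.31, adjusted p = 0.0146), while GA2OX6 (AT1G02400), which inactivates it, rose from 8.68, 4.65 and 12.6 CPM in NM to 153, 242 and 197 CPM in HF. The HF samples of GA2OX6 were all far above NM (24.5-fold, log2FC 4.61, SE 0.88, adjusted p = 0.00573). Among the gibberellin receptor genes GID1C fell (log2FC -0.89) and GID1B rose (log2FC 0.93), and GAI, a DELLA repressor of the pathway, fell (log2FC -1.27). GID1B was picked for mention after its values were seen.

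For the next lists, the shares over all genes were 5.73% down and 11.0% up. Of 29 cytokinin genes, 5 fell (17.2%), among them the early-response regulators ARR4 (log2FC -1.16), ARR6 (log2FC -1.31) and ARR9 (log2FC -1.26), and 2 rose (6.9%). Both that rose encode cytokinin oxidases: CKX5 had 1.62, 1.49 and 1.08 CPM in NM and 7.09, 14.3 and 11.7 CPM in HF (log2FC 2.90, SE 0.32, adjusted p = 0.00125), and CKX4 had a log2FC of 2.69. The gene BRU6 (AT4G37390), also called GH3.2, which conjugates auxin to amino acids, rose from 10.4, 7.34 and 8.80 CPM to 67.6, 49.9 and 63.4 CPM (log2FC 2.77, SE 0.23, adjusted p = 0.000648). Of 14 GH3 genes, 2 rose (14.3%, near the share over all genes), BRU6 and GH3.9 (log2FC 1.79), and 3 fell (21.4%), of which DFL2 fell most (log2FC -1.51). Of 22 Aux/IAA genes, 2 rose (9.09%), IAA10 (log2FC 2.57) and IAA2 (log2FC 1.60), and 2 fell (9.09%), both near the shares over all genes. Those that fell were IAA29 (log2FC -4.50), with 226 counts in NM and 5 in HF, and ATAUX2-11 (log2FC -0.82).

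Among homeobox genes of the HD-Zip and KNOX classes, 7 of 47 fell (14.9%) and 3 rose (6.38%), against 5.73% and 11.0% over all genes. KNAT4 (AT5G11060), a class II KNOX gene, had the largest fall, and its values were 25.5, 27.5 and 32.3 CPM in NM and 9.64, 2.72 and 6.38 CPM in HF. The shade-responsive gene HB-2 rose instead (log2FC 1.31, SE 0.25, adjusted p = 0.00561), although it was not called without the block. Of 15 stomatal lineage genes, SPCH (AT5G53210), which starts the lineage, fell from 8.72, 12.8 and 11.3 CPM to 4.15, 3.40 and 5.66 CPM (log2FC -1.33, SE 0.21, adjusted p = 0.00265). Its partner SCRM2 (log2FC -0.96) and the receptor-like gene TMM (log2FC -0.82) fell as well, and TMM was not called without the block.

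Cell wall genes were not uniformly lowered. Over all genes, 5.73% fell and 11.0% rose. Of 23 expansins, which loosen walls during growth, 5 fell (21.7%) and 1 rose (4.35%). EXPA1 (AT1G69530) had 88.9, 58.4 and 49.4 CPM in NM and 18.2, 6.69 and 18.2 CPM in HF (log2FC -2.19, SE 0.38, adjusted p = 0.00373). EXPA11 and EXPA8 each lost their call in 8 fits without a sample. Of 29 xyloglucan-modifying XTH genes, 5 rose (17.2%). XTH18 (AT4G30280) went from 28.5, 8.87 and 16.3 CPM to 1067, 1694 and 954 CPM (79.3-fold, log2FC 6.31, SE 0.86, adjusted p = 0.00167). The median log2FC of the XTH list was 0.18, and it turned to -0.09 when only library size was used. Of 40 arabinogalactan protein genes, 10 rose (25.0%) and 2 fell (5.0%), with a median log2FC of 0.53. This median was -0.24 in same-numbered pair 1, against 0.83 and 0.86 in pairs 2 and 3, and 0.19 without the block. AGP5 had 0.83, 0.28 and 1.81 CPM in NM and 19.3, 15.5 and 24.3 CPM in HF. Of 111 pectin genes, 9 rose and 9 fell (8.11% each), both near the shares over all genes. No cellulose synthesis gene of 15 was a DEG in edgeR's test; 2 had an unadjusted p under 0.05, and DESeq2 with the block called 1.

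Of 40 cell cycle genes, none rose and 3 fell (7.5%, near the 5.73% over all genes). The 3 encode inhibitors of cyclin-dependent kinases: KRP2 (log2FC -1.88), ICK1 (log2FC -1.22) and AT2G32710 (log2FC -0.83). Each of these lost its call in at least 1 fit that left out a sample.

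**Figure D2:**
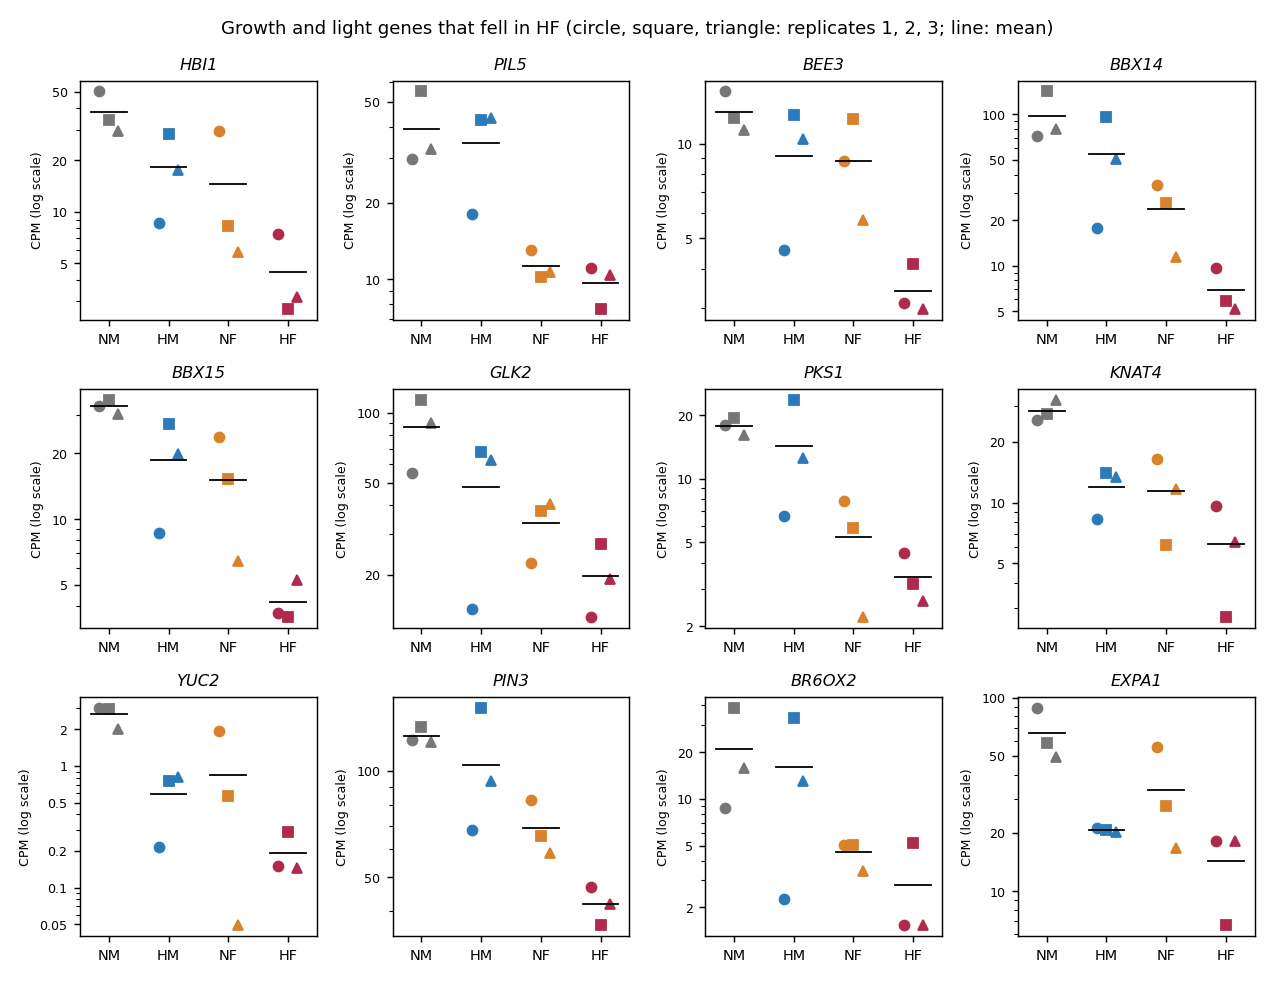
CPM (log scale) of 12 growth and light genes in the 3 samples of each group, with replicates 1, 2 and 3 as circle, square and triangle and the group mean as a line. In every panel the 3 HF points lie below the 3 NM points, as for HBI1 with NM at 29.5 CPM or more and HF at 7.44 CPM or less, and HM replicate 1 is the lowest HM sample in 11 of the 12 panels.

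B-box genes encode zinc-finger regulators of light responses, and 8 of the 26 tested fell. BBX14 (AT1G68520) fell most, from 72.1, 142 and 80.6 CPM in NM to 9.69, 5.84 and 5.18 CPM in HF, a 13.6-fold lower level. BBX15 (AT1G25440) was even across the NM samples, at 32.9, 35.3 and 30.4 CPM, and reached 3.70, 3.57 and 5.28 CPM in HF (log2FC -2.95, SE 0.51, adjusted p = 0.0036). BBX17 fell as well (log2FC -2.2, SE 0.30, adjusted p = 0.00163). All 3 of these calls held in every fit that left out a sample and without the block. BBX32 (AT3G21150), which dampens light signaling, was the only member that rose, from 0.45, 1.02 and 0.82 CPM to 13.9, 7.66 and 14.7 CPM (log2FC 3.92, SE 0.60, adjusted p = 0.00231).

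In light signaling, 3 genes of the PHYTOCHROME KINASE SUBSTRATE family, whose proteins act with phytochromes and phototropins, fell. PKS1 (AT2G02950) had 18.0, 19.5 and 16.1 CPM in NM and 4.44, 3.18 and 2.64 CPM in HF (log2FC -2.39, SE 0.46, adjusted p = 0.00604), and PKS4 and PKS2 had log2FC of -2.61 and -2.13. GLK2 (AT5G44190), an activator of chloroplast genes, fell from 55.0, 114 and 90.1 CPM to 13.2, 27.3 and 19.2 CPM (4.33-fold lower, log2FC -2.11, SE 0.28, adjusted p = 0.0016). The related regulators of greening CGA1 (log2FC -1.89) and GNC (log2FC -1.82), the blue-light receptor gene CRY1 (log2FC -0.88) and NPH3 of phototropism (log2FC -0.81) were also downregulated, and were picked for mention after their values were seen. Neither PHYB (log2FC -0.58) nor HY5 (log2FC 0.34, adjusted p = 0.263) was a DEG.

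Transcripts of the photosynthetic apparatus itself showed little difference. None of 46 light-harvesting and photosystem genes was a DEG, with log2FC from -0.59 to 0.25, 1 gene at an unadjusted p under 0.05 in edgeR and none called by DESeq2. The same held for 18 Calvin cycle genes, with log2FC from -0.32 to 0.20 and 2 genes at an unadjusted p under 0.05. RBCS1A, a Rubisco subunit, had a log2FC of 0.07 (SE 0.18), and LHCB1.3, a chlorophyll-binding protein, 0.10 (SE 0.19). Of 19 chlorophyll synthesis genes, 2 fell, CH1, which makes chlorophyll b (log2FC -1.24), and GUN4 (log2FC -0.75), and neither was called without the block. HEMA2 (AT1G09940), for a glutamyl-tRNA reductase at the entry of the pathway, rose from 22.6, 38.7 and 31.2 CPM to 288, 473 and 331 CPM (11.8-fold, log2FC 3.57, SE 0.38, adjusted p = 0.00125).

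Few clock genes were called, and the morning genes LHY and CCA1 varied with the replicate number. LHY, a morning-phased repressor of the clock, had 49.5, 276 and 138 CPM in NM replicates 1, 2 and 3 and 47.5, 170 and 130 CPM in HF. Replicate 2 was highest and replicate 1 lowest in both groups, and LHY was not called (log2FC -0.28, SE 0.21, adjusted p = 0.401). Its relative CCA1 followed the same order, with 25.3, 137 and 68.8 CPM in NM and 29.0, 127 and 69.9 CPM in HF (log2FC 0.04, SE 0.16). PRR9, PRR7, PRR5 and GI had log2FC from -0.48 to 0.23 and no call. TOC1 rose from 74.4, 60.1 and 110 CPM to 147, 141 and 136 CPM (log2FC 0.85, SE 0.20, adjusted p = 0.0174), without overlap, but it was no DEG without the block or when only library size was used. In all, 2 of 31 clock genes rose (TOC1 and BOA, log2FC 0.96) and 2 fell (CDF3, log2FC -1.07, and RVE2, log2FC -1.03). Each is 6.45% of the list, against 11.0% up and 5.73% down over all genes.

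**Figure D3:**
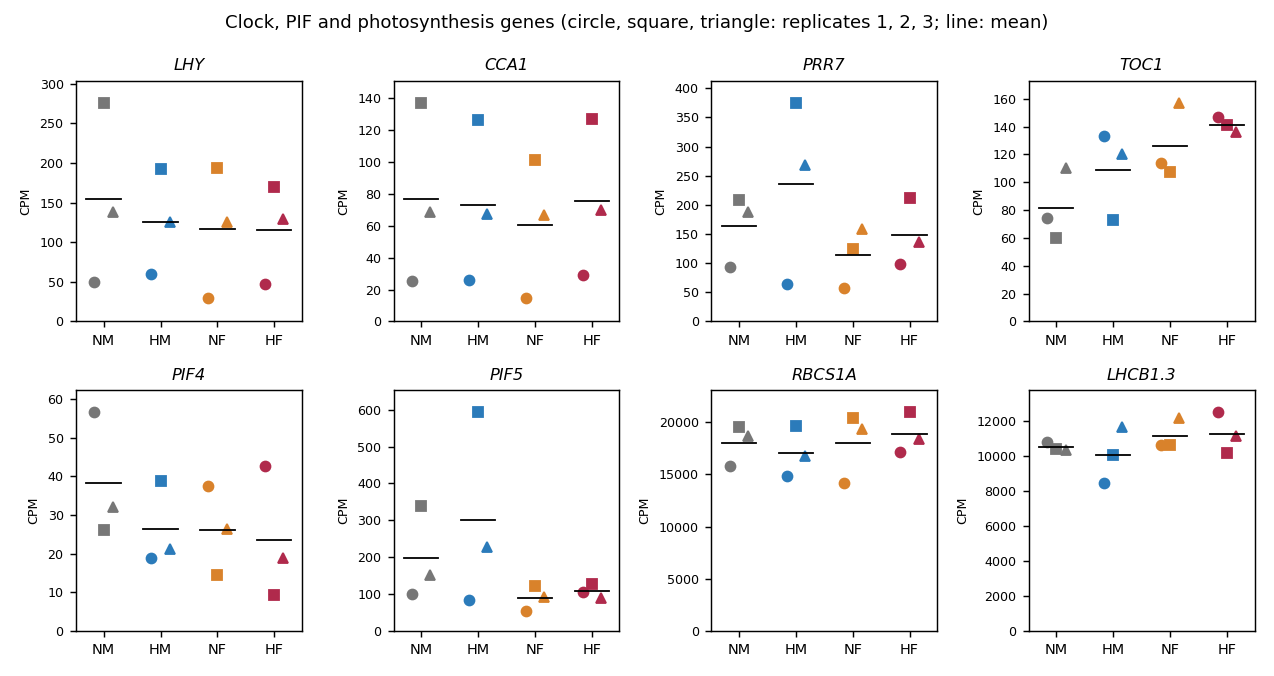
CPM (linear scale) of 4 clock genes, PIF4, PIF5, RBCS1A and LHCB1.3 in the 3 samples of each group, with replicates 1, 2 and 3 as circle, square and triangle and the mean as a line. LHY and CCA1 are lowest in replicate 1 and highest in replicate 2 of all 4 groups, while TOC1 is at 136 to 147 CPM in HF and at 60.1 to 110 CPM in NM.

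The core hypoxia genes rose without exception in the fit of all samples. Of 30 names on the list of the core hypoxia response 21 were matched to the table and 20 tested, and all 20 rose, with a median log2FC of 4.36 (16 to 20 in fits that left out a sample, and 19 without the block). PDC1 (AT4G33070), a pyruvate decarboxylase of ethanol fermentation, went from 5.55, 0.74 and 1.08 CPM in NM to 438, 774 and 244 CPM in HF (log2FC 8.20, SE 0.93, adjusted p = 0.00125). ADH1, the alcohol dehydrogenase of the same route, went from 9.06, 7.94 and 15.3 CPM to 184, 482 and 113 CPM (log2FC 4.56, SE 0.75, adjusted p = 0.00292). PCO1, an oxygen sensor that marks group VII ERFs for destruction, rose by 4.41 on the log2 scale, and ERF73, a member of that group, by 2.82. Replicate 2 was the highest HF sample for PDC1, ADH1 and PCO1. Of the genes that a published experiment found raised by 2 h of hypoxia, 294 of 425 tested rose (69.2%) and 1 fell. Of those it found lowered, 99 of 228 fell (43.4%) and 13 rose (5.7%). The shares over all genes were 11.0% up and 5.73% down. Of 28 energy starvation markers, 1 rose (3.57%).

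Immunity genes rose in the same seedlings. Of 47 genes of PTI signaling and its markers, 37 rose (median log2FC 2.54). WRKY33 (AT2G38470), a transcription factor of camalexin synthesis, went from 46.1, 26.3 and 60 CPM in NM to 1622, 1677 and 1364 CPM in HF (38.7-fold, log2FC 5.27, SE 0.77, adjusted p = 0.00197), and the MAP kinase gene MPK3 from 99.0, 80.6 and 106 CPM to 1274, 1289 and 1235 CPM (log2FC 3.76). PROPEP3, which encodes the precursor of an immune peptide, rose with a log2FC of 8.14 (SE 1.01, adjusted p = 0.00145). FLS2 itself was not called (log2FC -0.22, adjusted p = 0.587). FRK1, a common marker of PTI, was not called either (log2FC 1.34, SE 1.08, adjusted p = 0.447). It had 0.38, 0.79 and 38.3 CPM in NM and 2.25, 11.6 and 17.7 CPM in HF, so that it was higher in HF in the pairs of replicates 1 and 2 and lower in that of replicate 3. The mean level was lower in HF (10.5 CPM) than in NM (13.1 CPM), the opposite sign to the log2FC, and FRK1 was also not called without NM replicate 3.

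Families of stress regulators differed in the share that rose, against 11.0% over all genes. Of 60 WRKY genes, 28 rose (46.7%) and 2 fell, and of 35 cysteine-rich receptor-like kinases, 17 rose (48.6%) and 1 fell. For NAC genes the counts were 15 up (21.4%) and 2 down of 70, with a median log2FC of 0.19 that turned to -0.08 when only library size was used. Of 12 JAZ repressors of jasmonate signaling, 4 rose (33.3%), among them JAZ1 (log2FC 3.01) and JAZ5 (log2FC 4.37). Of 80 heat shock genes, 9 rose (11.2%, close to the share over all genes), with HSF A4A highest (log2FC 3.20), and 3 fell. Cytochrome P450 genes, whose enzymes need molecular oxygen, went both ways: 22 of 160 rose (13.8%) and 19 fell (11.9%, against 5.73% over all genes). CYP81F2 of indole glucosinolate synthesis rose from 27.7, 20.9 and 55.9 CPM to 1116, 1415 and 1092 CPM. The CYP707A genes, which break down abscisic acid, were split. CYP707A4 and CYP707A2 fell (log2FC -3.04 and -2.48) and were not called without the block. CYP707A1 and CYP707A3 rose, and were picked for mention after their values were seen. Of 50 cytosolic ribosomal protein genes, 2 rose (median log2FC 0.17, or -0.11 when only library size was used).

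Several of the largest rises were in genes without a count in any NM sample. Against a floor of 3 counts over the NM group, AT4G18540 was at least 311-fold higher in HF, SRO4 at least 240-fold, CYP715A1 at least 214-fold, AT4G37290 at least 201-fold and AT3G43250 at least 198-fold. Their HF values were uneven, as for AT4G18540 with 23.8, 1.3 and 14.2 CPM. SRO4 lost its call in 5 fits that left out a sample. AT4G04480 had 1 count in NM and 2173 in HF.

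The W-box, the sequence that WRKY factors bind (TTGACC or TTGACT, on either strand), was searched in the same 250-base windows. It was found in 46.2% of the promoters of upregulated genes, 22.2% of those of downregulated genes and 28.8% of all. CGCGTT, the core of the rapid stress response element, was in 6.87%, 1.3% and 2.82%. Among PTI genes that rose, 20 of 37 held a W-box, and 4 of 10 of those without a call did. As examples among the strongest rises, 3 promoters with 3 or 4 matches are shown, with each in capitals (AGTCAA and GGTCAA are the other strand): PROPEP3 from chr5:25939312-25939561 on the plus strand, WRKY30 from chr5:8154711-8154960 on the minus strand and CYP82C3 from chr4:15454833-15455082 on the plus strand.
PROPEP3: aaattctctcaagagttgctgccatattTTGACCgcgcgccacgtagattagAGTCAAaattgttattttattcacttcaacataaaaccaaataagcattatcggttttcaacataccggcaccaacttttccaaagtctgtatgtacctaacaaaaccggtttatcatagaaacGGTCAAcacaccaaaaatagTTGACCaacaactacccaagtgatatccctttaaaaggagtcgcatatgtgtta
WRKY30: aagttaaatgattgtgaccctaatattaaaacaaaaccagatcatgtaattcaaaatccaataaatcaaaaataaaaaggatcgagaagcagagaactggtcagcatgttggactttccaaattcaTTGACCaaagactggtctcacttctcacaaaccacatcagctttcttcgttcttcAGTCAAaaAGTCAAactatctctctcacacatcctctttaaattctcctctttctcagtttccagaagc
CYP82C3: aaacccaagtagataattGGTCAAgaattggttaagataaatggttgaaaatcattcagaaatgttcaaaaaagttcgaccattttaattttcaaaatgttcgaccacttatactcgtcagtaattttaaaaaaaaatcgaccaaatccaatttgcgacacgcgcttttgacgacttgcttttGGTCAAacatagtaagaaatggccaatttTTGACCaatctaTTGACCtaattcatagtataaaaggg
PROPEP3 had 0.83, 0.09 and 0.30 CPM in NM and 101, 115 and 135 CPM in HF. WRKY30 had 0.34, 0.47 and 1.42 CPM in NM and 166, 151 and 217 CPM in HF. CYP82C3, a P450 gene, had 0.26, 0 and 0.30 CPM in NM and 70.1, 127 and 171 CPM in HF.

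**Figure D4:**
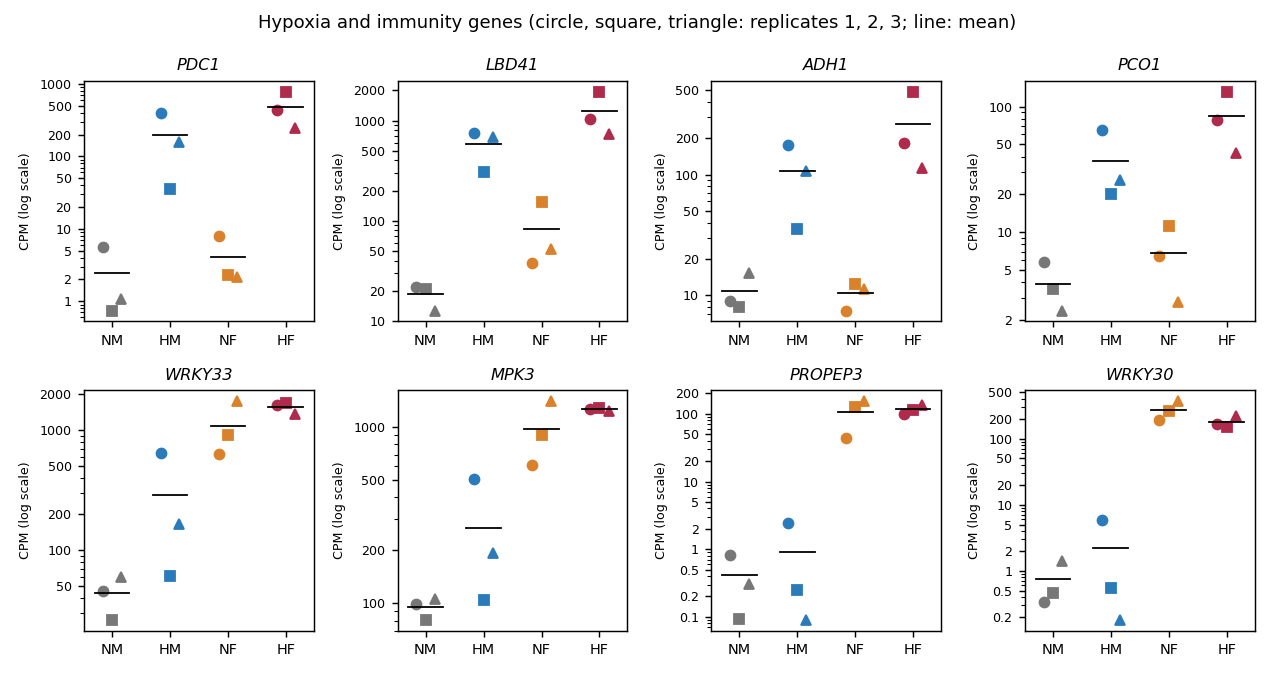
CPM (log scale) of 4 hypoxia genes (top) and 4 immunity genes (bottom) in the 3 samples of each group, with replicates 1, 2 and 3 as circle, square and triangle and the mean as a line. PDC1 reaches 244 CPM or more in HF and 7.82 CPM or less in NF, PROPEP3 reaches 101 CPM or more in HF and 2.40 CPM or less in HM, and HM replicate 1 is the highest HM sample in all 8 panels.

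The combined treatment was set beside each single stress. All of them rest on the same NM samples, and DEGs made up 0.0648% of tested genes in HM vs NM and 11.5% in NF vs NM. For HBI1, the log2FC relative to NM was -0.90 (HM), -1.57 (NF) and -3.16 (HF). BEE3 had -0.52, -0.57 and -1.93 in the same order, and PIN3 had -0.29, -0.86 and -1.57. For PIL5 the value in NF (-1.75) was near that in HF (-1.96), with -0.20 in HM. PRE6 had -1.49 (HM, adjusted p = 0.118, not called), 0.35 (NF, not called) and -1.19 (HF). CKX5 (0.09, 3.35 and 2.90), CKX4 (0.12, 3.73 and 2.69), BRU6 (0.78, 3.14 and 2.77) and GA2OX6 (1.52, 4.59 and 4.61) had high values in NF and HF.

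**Figure D5:**
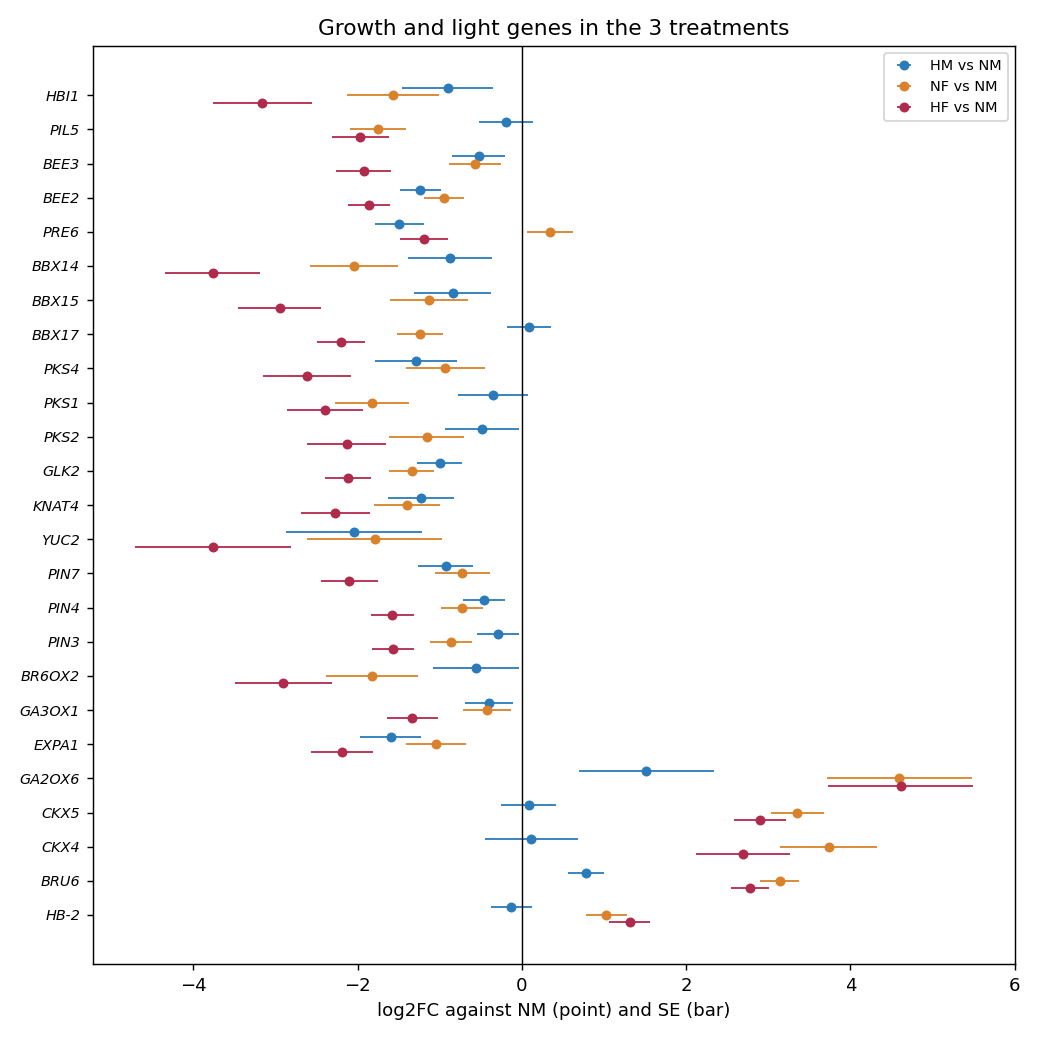
log2FC relative to NM (point) with its SE (bar) of 25 growth and light genes in HM (blue), NF (orange) and HF (crimson). HBI1, BBX14 and BR6OX2 are lowest in HF at -3.16, -3.76 and -2.90, while GA2OX6 has 4.59 in NF and 4.61 in HF.

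Whether the falls differed from those of a single stress was tested directly. HF vs NF gave 21 DEGs (0.105% of all tested genes), 17 higher (0.0847%) and 4 lower (0.0199%) in HF, and no member of the bHLH, TCP, B-box or SAUR lists was lower in HF. HBI1 was lower in HF than in NF by 1.59 on the log2 scale with an adjusted p of 0.333, and BBX14 by 1.72 with an adjusted p of 0.276 (edgeR's quasi-likelihood test). Of the genes higher in HF, 6 were matched members of the core hypoxia list (PDC1, AT5G39890, LBD41, PCO1, ETR2 and ERF73). Only 21 of the 30 names on that list were matched, so 6 may be too low. Whether unmatched names are among the others was not checked. The others included AT4G10265, with the largest difference (7.68), AT5G66985 (4.91), AT1G33055 (4.82) and AT3G27220 (4.03). The SAUR gene AT1G72430 and the HD-Zip gene HAT1 were also higher. The 4 lower genes were AT3G51180, AT1G05670, AT1G21590 and AT4G35940. Of these, only the zinc-finger gene AT3G51180 was also downregulated in HF vs NM: it had 7.77, 7.20 and 6.56 CPM in NM, 1.76, 2.36 and 2.16 CPM in HM, 8.89, 12.5 and 8.91 CPM in NF and 1.45, 2.27 and 2.78 CPM in HF. These genes were picked for mention after their values were seen. Without the block, HF vs NF gave no DEG, with 992 genes at an unadjusted p under 0.05, and DESeq2 gave 376 with the block and 138 on 2 groups without it.

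HF vs HM gave 1915 DEGs (9.54%), 1415 higher (7.05%) and 500 lower (2.49%) in HF. Of 29 growth bHLH genes, 6 were lower in HF than in HM, among them HBI1 (by 2.26, adjusted p = 0.0435), PIL5 (by 1.77, adjusted p = 0.0168) and BEE3 (by 1.4, adjusted p = 0.0305). Of 26 B-box genes, 7 were lower and 2 higher in HF, and of 20 core hypoxia genes, 1 was higher. This comparison rested on single samples. The number of DEGs was 112 without HM replicate 3, 227 without HM replicate 2, 307 without HF replicate 2 and 490 without HF replicate 3, and in each of these fits the count of bHLH genes was 0, with 1 B-box gene lower. Without HM replicate 1 it was 2685, with 12 bHLH genes lower, and it was 879 without the block, with 2 bHLH genes lower. HBI1 had 8.59, 28.3 and 17.4 CPM in HM replicates 1, 2 and 3, and WRKY33 had 647, 60.8 and 165 CPM, so that HM replicate 1 was nearest to HF for both.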

How the data were processed

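RNA-seq of 12 samples of Col-0 seedlings (4 groups of 3) was used, grouped by the treatment in the labels. The authors filtered reads with SOAPnuke, mapped them, and deposited an expected count per gene that was not normalized. The submitters' notes name HISAT, DESeq2 and TAIR10, and the counting tool and its use of strand are not given in the sources used here. Group means in the same table were not used. Because 2.3% of values were not whole, counts were rounded. TMM factors (0.828 to 1.23) were used for normalization, and tests were run with edgeR 4.0.16 in R 4.3.3 (filterByExpr, minimum count 10, quasi-likelihood test) in 1 fit of 12 samples with group and replicate number, and p-values were adjusted by Benjamini-Hochberg over 20074 genes. p-values rest on the spread left among the 12 samples after group and replicate number were fitted. The study's methods call these samples biological replicates. Replicates differed by 30.2 to 193 times sampling noise (chi-square per degree of freedom), so none was a repeat of another.

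Lists of 36 families and pathways were taken from gene symbols, product names and the study's supplementary hypoxia list. The genes named were a fixed set of clock, light, growth, hypoxia and immunity genes, the largest changes in each list among DEGs whose direction was shared by the 3 same-numbered pairs (mean count at least 10), and the largest over all genes. The comparison, lists and tests were chosen with earlier results of these data known. Promoters were read from the RefSeq TAIR10.1 genome and annotation. A floor of 3 counts over the NM group was used for genes without counts in NM, which covers counting error only. On simulated HF vs NM data with 20074 genes, 173 of 200 genes given a log2 change of 2 were recovered (86.5%), with 9 false calls. The simulation took its spread and replicate block from the fit itself, and its few changed genes were equally often raised and lowered. These values therefore do not measure the recovery or false calls of the real data. Alternatives were no block, 2 groups only, DESeq2 1.42.0, its size factors, library size only, other filters, no log2FC cutoff, robust dispersions and each sample left out. Python 3.11.15 with pandas 2.3.3, numpy 2.4.6 and matplotlib 3.10.9 was used for tables and figures.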

Additional observations from a re-analysis of the deposited data

How the results depend on the processing

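Results are limited by the spread between replicates and by the pairing. Deviations from the group means of same-numbered HF and NM samples had r of 0.524, 0.583 and -0.009 for replicates 1, 2 and 3, and HF replicate 3 was closest to NM replicate 1 (0.303), so that the pairing is not shown by the data for replicate 3. The block lowered the biological coefficient of variation from 0.362 to 0.237. Without the replicate block, edgeR gave 2095 DEGs in HF vs NM (519 down), 0 in HF vs NF, 879 in HF vs HM and, among the fixed genes, 0 in HM vs NM (2 with the block). On the 2 groups compared, it gave 663 downregulated DEGs in HF vs NM, 44 DEGs in HF vs NF and 375 in HF vs HM with the block, and 1757 (1431 up and 326 down), 0 and 290 without it. DESeq2 with the block called 376 genes in HF vs NF, 10 fixed genes in NF vs NM (4 with edgeR) and 7 in HM vs NM, and on 2 groups without the block it gave 729 downregulated DEGs in HF vs NM and 138 DEGs in HF vs NF. Scaling by library size only gave 5107 DEGs in HF vs NM (3322 down, an upregulated share of 35.0% against 65.8%), 2885 in HF vs HM, and 7 and 1 fixed genes in NF vs NM and HM vs NM. Robust dispersions gave 12 DEGs in HF vs NF and 0 fixed genes in HM vs NM. Leaving out each sample in turn gave 2135 to 3446 DEGs in HF vs NM (477 to 1291 down), 0 to 61 in HF vs NF, 112 to 2690 in HF vs HM, and 2 to 9 and 0 to 4 fixed genes in NF vs NM and HM vs NM. Of 158 named genes that were DEGs, 111 were called in every such fit and 113 without the block, and no direction was reversed under any alternative. The cause of these differences was not tested.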
